A study of Moesziomyces aphidis with 9 samples.

Results

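The genes described here are the most abundant transcripts of the fungus Moesziomyces aphidis whose level was nearly the same on glucose and on glucose with soybean oil. They were chosen by their measured level in RPKM, the reads of a gene divided by its length in kilobases and by the size of the library. A gene belonged to the set where its mean over 6 libraries was at least 500 RPKM and where the log2 ratio of the medium means, soybean oil over glucose with 1 RPKM added to each, was under 0.5 in size. Of the 6952 genes listed, 182 reached 500 RPKM, and 81 of these were stable by this rule. The choice rests on the same values that compare the media, so the medium levels below are a description and carry no test.

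Moesziomyces aphidis is a basidiomycete fungus known for secreting mannosylerythritol lipids, which are glycolipid surfactants. All cultures were of strain DSM70725 and were kept at 30 °C for 114 h. The first group grew in yeast extract medium with 40 g/l glucose and carries the labels not induced and blastospores. The other group had the same medium and glucose plus 70 g/l soybean oil and carries the labels induced and filaments, so the effects of medium and of cell form cannot be told apart. Each medium had 3 unstranded libraries of 50 bp single reads. A stranded library per medium carries the number of replicate 1, and a library of 95 bp paired-end reads carries that of soybean oil replicate 2, and these 3 were not used to choose the genes. The labels do not say whether replicates came from separate cultures, so spreads may be technical.

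In fungi a small number of genes supplies much of the messenger RNA of a growing cell. In the yeast Saccharomyces cerevisiae these include the genes for ribosomal proteins, translation elongation factors and glycolytic enzymes, and ribosomal protein genes are known to rise and fall together. Abundant transcripts of steady level are also the usual choice as references for measurements of other genes. The files give identifiers without names or products, so no function is assigned to any gene below, and the sequences of these genes are not printed.

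The 6 main libraries held 8108888 to 11100455 reads, of which 97.2% to 98.1% lay in genes, and the 95 bp library held 31573726. Each of the 81 genes had between 582 and 92943 reads in a main library. RPKM is relative to the library total. A steady RPKM therefore does not show a steady amount of RNA per cell, and in these bulk samples fewer cells and less RNA per cell cannot be told apart. Over the 6486 genes tested, those averaging 1 RPKM or more, limma called 49.5% changed between the media at a Benjamini-Hochberg adjusted p under 0.05 (21.5% higher and 28.0% lower with oil), and the groups of 3 libraries did not overlap in 59.9%.

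The 81 stable genes together took 10.4% ± 0.563 of gene reads in the glucose libraries and 10.6% ± 0.427 in the oil libraries (SD, n = 3). The highest share was 11.1% in a glucose library and 11.1% in an oil library, and the ranges of the media overlapped. The 95 bp library had a share of 8.14%. The other 101 genes of at least 500 RPKM took 23.2% ± 0.176 and 22.9% ± 1.21 (SD, n = 3). Of these 101, 64 lay at or above the upper limit of 0.5 on the log2 ratio and 37 at or below the lower limit of -0.5. The stable genes made up a smaller part of the abundant genes at higher levels. They were 53 of 107 genes between 500 and 1000 RPKM, 19 of 49 between 1000 and 2000 RPKM, and 9 of 26 at 2000 RPKM or more. Among the 10 genes of highest mean in the series, 3 were stable, and among the first 20, 7.

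**Figure D1:**
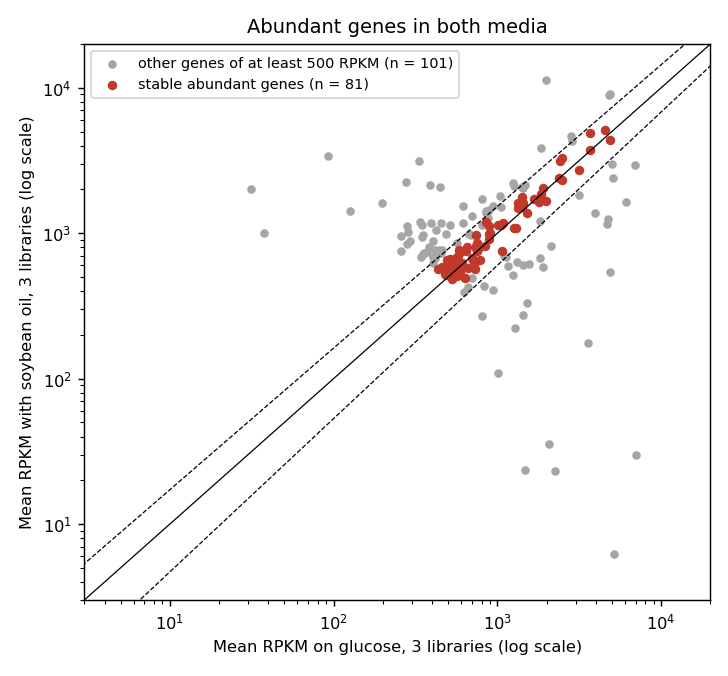
Mean RPKM of each gene of at least 500 RPKM on glucose (x axis, log scale) and with soybean oil (y axis, log scale), 3 libraries per medium. The 81 stable genes (red) lie along the solid line of equal level, between the dashed lines at log2 ratios of -0.5 and 0.5 that chose them, and the other 101 genes (grey) lie outside.

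Within the limits, 55 of the 81 genes were higher with oil by their medium means and 26 lower, and 28 had a log2 ratio under 0.1 in size. The median log2 ratio was 0.0676, against -0.0684 over all genes tested. The libraries of the media overlapped in 64 of the 81 genes and not in 17, and limma called 1, PaG_00906, which was lower with oil. Both counts follow from the rule and show nothing further about these genes.

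PaG_05185 had the highest mean of the set, 4818 RPKM. Its level was 4410.5, 4737 and 4466 RPKM on glucose and 4941, 4902 and 5453 RPKM with oil. All 3 oil libraries stood above all 3 glucose libraries, at a log2 ratio of 0.17. PaG_05182, a few identifiers away, followed with 4373, 4607 and 5535 RPKM on glucose and 3894, 4563 and 4713 RPKM with oil. Here the libraries overlapped, with glucose 3 the highest of the 6 and soybean oil 1 the lowest. These were the fifth and the sixth most abundant genes of the series by the mean over 6 libraries.

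PaG_10127 was among the shortest genes of the set, with a length of 180 bp. It had 3761, 3837 and 3457 RPKM on glucose and 4378, 4652 and 5577 RPKM with oil. Every oil library lay above every glucose library, and the log2 ratio was 0.40, or -0.03 with the 95 bp library in place of soybean oil 2. PaG_10210 and PaG_00402 had the same order, each without overlap. PaG_10210 averaged 2490.1 ± 209 RPKM on glucose and 3286 ± 239 with oil, and PaG_00402 2415 ± 234 and 3136 ± 144 (SD, n = 3). PaG_10924 had the opposite order, 3196, 3154 and 3134 RPKM on glucose and 2542, 2734 and 2884 RPKM with oil, with all oil libraries below all glucose libraries and a log2 ratio of -0.22. After quantile normalization its ratio had the other sign, at 0.20. Under the same setting PaG_10127, PaG_10210 and PaG_00402 had log2 ratios of 0.64, 0.69 and 0.65, above the upper limit of the rule. PaG_05182 and PaG_06220 had the other sign as well, at 0.04 and 0.18, within the limits. PaG_05185, PaG_10548, PaG_10574 and PaG_04391 kept their sign and stayed within the limits.

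PaG_10574 was the steadiest of the 10 most abundant members. It had 2364, 2261 and 2511 RPKM on glucose and 2209, 2543 and 2438 RPKM with oil, so the highest library was 1.15 times the lowest and the media overlapped. The remaining members of the first 10 were PaG_06220 with 2482 ± 336 RPKM on glucose and 2339 ± 232 with oil, and PaG_04391 with 1892 ± 186 and 2052 ± 326 (SD, n = 3), both with overlapping libraries, and PaG_10548, which is described below. Neighbours in the order of means that do not differ beyond their spread include PaG_05185 and PaG_05182, and PaG_06220 and PaG_10574. The 10 together took 3.56% ± 0.0996 of gene reads in the glucose libraries and 3.68% ± 0.274 in the oil libraries (SD, n = 3).

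**Figure D2:**
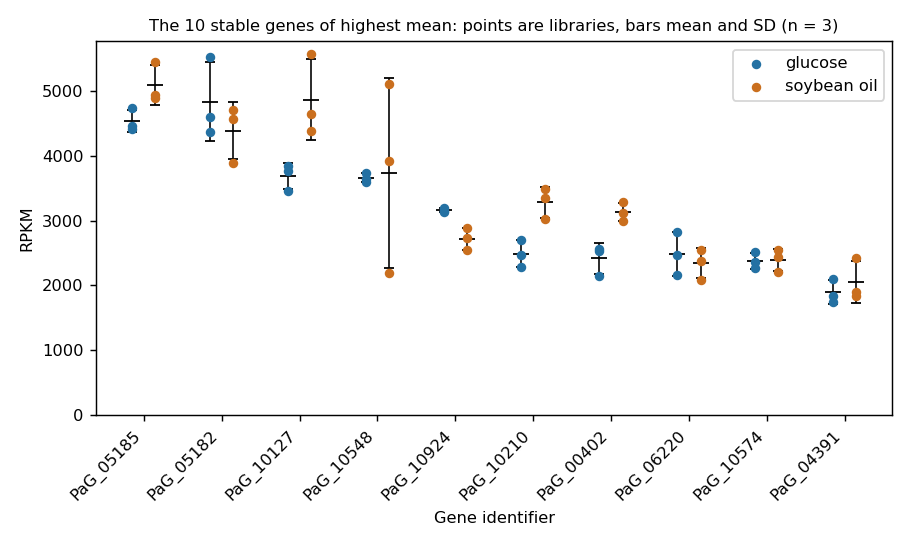
RPKM of the 10 stable genes with the highest means (x axis, by identifier) in each glucose library (blue) and soybean oil library (orange), with mean and SD (n = 3). PaG_10574 stays between 2209 and 2543 RPKM in the 6 libraries, while the oil libraries of PaG_10548 spread from 2195 to 5107 RPKM.

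The rule cut through a continuous range of values. Just above the level of 500 RPKM stood PaG_02611, PaG_01988 and PaG_03278 with means of 501.2, 501.5 and 502.0 RPKM, and the 3 nearest genes below it, at equal stability, had 499.7, 499.0 and 498.9. At the upper limit the members PaG_03628, PaG_02611 and PaG_02610 had log2 ratios of 0.49, 0.40 and 0.40, and the nearest genes outside had 0.5001, 0.51 and 0.51. At the lower limit PaG_00906, PaG_06467 and PaG_04125 had -0.4978, -0.37 and -0.36, and the nearest outside had -0.5027, -0.58 and -0.64. PaG_00906 was also the longest member, with 2644 bp, and had 1073, 1175 and 962 RPKM on glucose and 719, 800.4 and 753 RPKM with oil without overlap. PaG_03628 had 1024, 891 and 627 RPKM on glucose and 1045, 1159 and 1367 RPKM with oil, with glucose 3 the lowest of the 6 and no overlap.

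A stable mean did not always come with steady libraries. The ratio of the highest to the lowest of the 6 libraries had a median of 1.53 over the 81 genes and ran from 1.15 in PaG_10574 to 2.87 in PaG_06467. It was under 1.5 in 34 genes and above 2 in 8. Over all genes tested the median ratio was 1.84, a value to which the media contribute. By the SD of log2(RPKM + 1) over the 6 libraries the steadiest genes were PaG_04077, PaG_10574 and PaG_10619. PaG_04077 had 742, 729.8 and 767 RPKM on glucose and 694, 772 and 813 RPKM with oil, and its media overlapped. PaG_10619 had 1027, 986 and 1030.5 RPKM on glucose and 1122, 1122 and 1149.9 RPKM with oil, where the libraries of each medium lay close together and the oil libraries stood slightly above.

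PaG_06467, PaG_01879 and PaG_00769 varied most by the same SD, each through spread within a medium, while by the ratio of the highest to the lowest library PaG_06467, PaG_00769 and PaG_06606 came first. PaG_06467 had 577, 471 and 851 RPKM on glucose and 573, 603 and 297 RPKM with oil, with glucose 3 highest and soybean oil 3 lowest. PaG_01879 had 1183, 1112 and 2000.3 RPKM on glucose and 1709.8, 2137 and 970.2 RPKM with oil, with the same libraries at its extremes apart from soybean oil 2, which stood above glucose 3. PaG_00769 had 494, 316 and 866 RPKM on glucose and 540.0, 616 and 541 RPKM with oil, so glucose libraries 2 and 3 enclosed all others. In all 3 genes the media overlapped.

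The spread between replicates was smaller without glucose 3 and without soybean oil 1. The median SD of log2(RPKM + 1) over the 81 genes was 0.182 among the glucose libraries and 0.195 among the oil libraries, against 0.188 and 0.160 over all genes tested. Without glucose 3 the glucose value was 0.0512, and without soybean oil 1 the oil value was 0.113. Across the 81 genes the log2 levels of glucose 1 and 2 had a Pearson correlation of 0.989, and those of glucose 3 with them 0.918 and 0.916. Over all genes tested, which span a wider range of levels, these values were 0.994, 0.967 and 0.970. They are a description over genes, which are not independent. Glucose 3 was the highest glucose library in 52 of the 81 genes (64.2%), against 28.5% of all genes tested, and the lowest in 23 (28.4%), against 60.6%. Soybean oil 1 was the lowest oil library in 59 of the 81 (72.8%, against 53.2% of all), and soybean oil 3 the highest in 53 (65.4%, against 30.7%). In the other abundant genes glucose 3 was the highest glucose library in 46.5% and the lowest in 40.6%. Soybean oil 3 was the highest oil library in 40.6% of them. These values lay between those of the 81 genes and of all genes tested. Soybean oil 1 was the lowest oil library in 38.6% of the other abundant genes, below both.

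These orders came together in many of the same genes. In 35 of the 81 genes (43.2%) glucose 3 was the highest glucose library while soybean oil 1 was the lowest and soybean oil 3 the highest oil library. The same order was found in 487 of all 6486 genes tested (7.51%) and in 9 of the other 101 abundant genes. It was picked out after the values were seen and has no test. After median-ratio scaling 35 members had it, 32 of them the same as before, and after quantile normalization 17 had it, 16 of them the same, beside 6.65% of all genes tested. Examples are PaG_02353, with 539, 527 and 697 RPKM on glucose and 438, 579 and 676 RPKM with oil, and PaG_05590, with 515, 539 and 659.5 RPKM on glucose and 436, 545 and 633 RPKM with oil. These genes followed each other within 0.1 on the log2(RPKM + 1) scale in each of the 6 libraries, as did PaG_01988 and PaG_03278. PaG_01988 had 457, 441 and 560.4 RPKM on glucose and 394, 537 and 619 RPKM with oil, and PaG_03278 had 429, 454 and 557 RPKM on glucose and 415, 525 and 633 RPKM with oil. No other pair of members was as close. The median length was 798 bp in the 35 genes and 1006 bp in the remaining members.

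**Figure D3:**
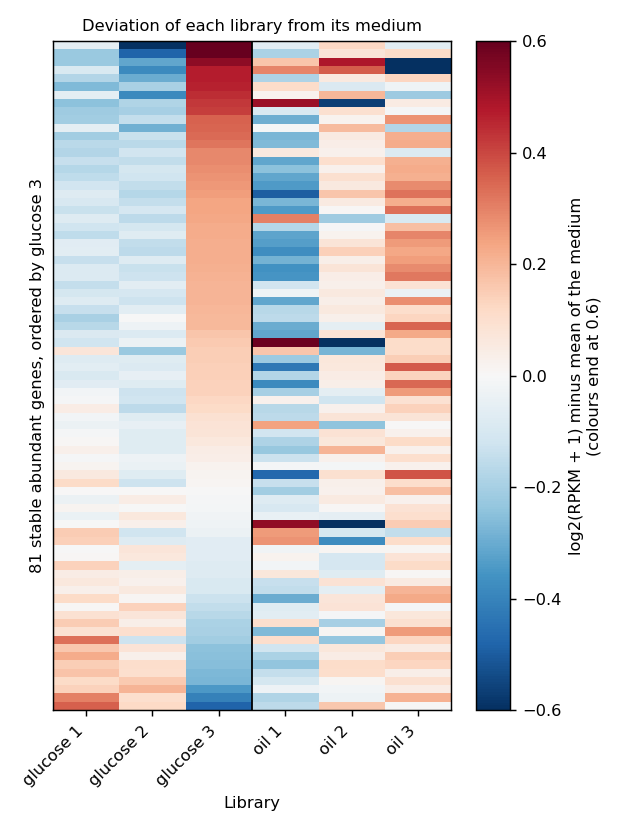
Deviation of each library (x axis) from the mean of its medium on the log2(RPKM + 1) scale for the 81 stable genes (rows, ordered by glucose 3), with colours ending at 0.6. Glucose 3 is the highest glucose library in 52 genes, and soybean oil 1 is the lowest oil library in 59.

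A small group had soybean oil 1 as the highest and soybean oil 2 as the lowest oil library. PaG_10548, PaG_06606 and PaG_00651 were the 3 members at least 2-fold higher in soybean oil 1 than in soybean oil 2, a difference seen in 0.663% of all genes tested. PaG_10548 had 3651, 3736 and 3599 RPKM on glucose and 5107, 2195 and 3914 RPKM with oil, so its glucose libraries were close together and lay inside the range of its oil libraries. PaG_06606 had 534, 567 and 647 RPKM on glucose and 1075, 441 and 774 RPKM with oil, and PaG_00651 had 612, 640.1 and 972 RPKM on glucose and 1321, 626 and 957 RPKM with oil. In PaG_06606 soybean oil 2 was the lowest of the 6 libraries and soybean oil 1 the highest, and in PaG_00651 soybean oil 2 lay within the range of the glucose libraries. Among libraries not used in the choice, the stranded library of soybean oil 1 held 6661 RPKM of PaG_10548 and the 95 bp library of soybean oil 2 held 597. For PaG_06606 these values were 912 and 117 RPKM, and for PaG_00651 982 and 301 RPKM. The library kinds differed as well. In PaG_10548, PaG_06606 and PaG_00651 the 95 bp level was 3.67-, 3.76- and 2.07-fold lower than the 50 bp level of soybean oil 2. In this comparison replicate and library kind cannot be told apart.

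The stranded libraries gave a view of the medium difference in libraries that the rule had not used, with 1 library per medium and so no test. The log2 difference, oil minus glucose on the log2(RPKM + 1) scale, had a median of -0.0380 over the 81 genes and was lowest at -0.83. It reached 0.5 in size in 19 genes (23.5%), 11 higher and 8 lower with oil, against 53.6% of all genes, of which most were lower (41.7% lower and 11.8% higher). The median over all genes was -0.35, and scaling the pair by its median ratio changed the split: 28 members were then higher with oil by 0.5 or more and 0 lower. This scaling, by a ratio of 0.785, raises the oil values of all genes alike. The split over all genes after it is not given here, so the scaled counts describe the members only. Under 0.5 lay 53 of the 81 genes after this scaling and 62 before it, with 45 genes in both. The libraries share the number of replicate 1 with libraries that chose the genes, so they may share its RNA.

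The 5 genes with the largest stranded difference were all higher with oil. PaG_10548 had 2351 RPKM in the stranded glucose library and 6661 in the stranded oil library, PaG_06606 had 342 and 912, and PaG_00651 had 418 and 982. These are the members that were high in the unstranded library of soybean oil 1. PaG_04463 stood at 30 and 76.9 RPKM and PaG_03951 at 166 and 353. The smallest differences were found in PaG_04152, with 321 and 323 RPKM, in PaG_02611, with 185 and 186, and in PaG_01070, with 371 and 374.

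Levels in the stranded libraries were lower than in the unstranded ones. The median log2 difference, stranded minus unstranded library of replicate 1, was -1.22 on glucose and -1.23 with oil over the 81 genes, -0.56 and -0.67 over the other 101 abundant genes, and -0.37 and -0.55 over all genes. At least 2-fold lower levels in both media were found in 49 of the 81 genes (60.5%), against 15.8% of all genes. Members were chosen by values of the unstranded libraries, those of replicate 1 included, so these counts are a description. The other 101 genes, chosen for the same level, held 25 such genes (24.8%). No member was higher in the stranded library in both media, and in 1, PaG_10548, the stranded library was the higher with oil.

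In 6 members the stranded level was at least 8-fold lower in both media. This was so in 3 of the other 101 abundant genes and in 0.432% of all genes. PaG_04463 had 912 RPKM in the unstranded and 30 in the stranded glucose library, and 1163 and 76.9 in those with oil. PaG_03941 had 794 and 39.1 RPKM on glucose, and 601 and 50.6 with oil. PaG_04021 had 659 and 42.0 on glucose, and 667 and 52.4 with oil. The others were PaG_00729, PaG_01345 and PaG_02610, with folds of 11.8, 11.4 and 9.60 on glucose and 8.71, 11.2 and 8.86 with oil. These genes were picked out by this fold after the values were seen. An unstranded library cannot tell the reads of a gene from those of a gene on the other strand, and whether this contributes to the unstranded level of these genes was not tested.

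**Figure D4:**
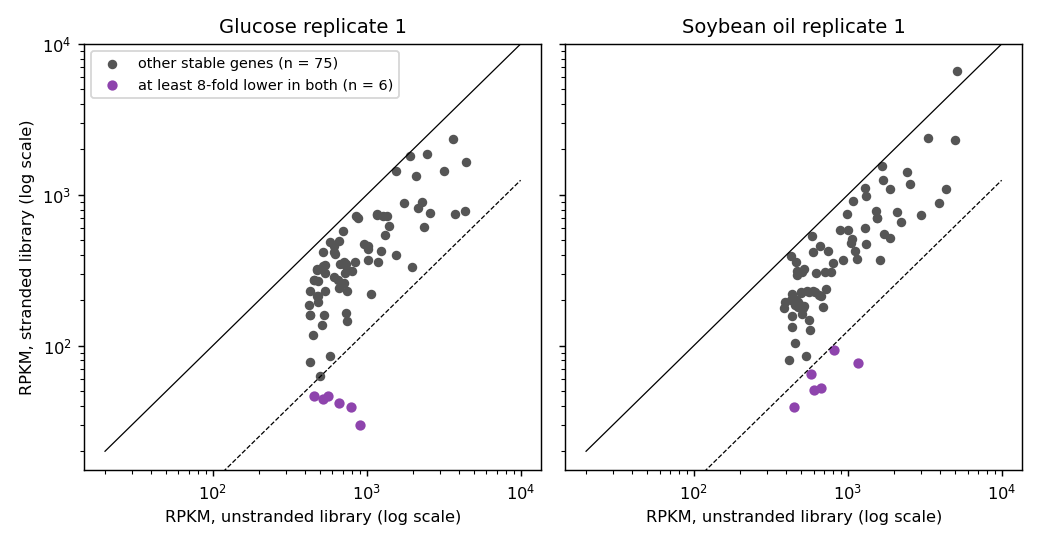
RPKM of the 81 stable genes in the unstranded (x axis) and stranded library (y axis) of replicate 1 on glucose (left) and with soybean oil (right), log scales. The solid line marks equal values and the dashed line an 8-fold lower stranded value, below which 6 genes (purple) lie in both media.

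The 95 bp paired-end library carries the number of soybean oil 2 and has no replicate, and the labels do not say whether it was made from the same RNA as the 50 bp library of that number. Its level was lower by at least 0.5 on the log2 scale in 26 of the 81 genes and higher in 3, where 46.3% of all genes differed this far, 11.1% lower and 35.2% higher. The median log2 difference, 95 bp minus 50 bp, was -0.25 for the 81 genes and 0.28 for all genes. It was -0.71 for the other 101 abundant genes, which had been chosen for the same level. Of these 101 genes 57 were lower by at least 0.5 and 16 higher. After scaling by the median ratio of 1.22, 44 members were lower and 1 higher. This scaling lowers the 95 bp values of all genes alike. The shares over all genes after it are not given here, so these 2 counts describe the members only. A level at least 4-fold lower was found in 3 members, in 12 of the other 101 abundant genes and in 1.23% of all genes.

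PaG_01614 differed most. It had 2277, 1659 and 1568 RPKM on glucose and 1888, 1495 and 1923 RPKM with oil in the 50 bp libraries. The 95 bp library held 36.5 RPKM of it, from 2080 reads. This was a 39.9-fold lower level than in the 50 bp library of the same number. The stranded libraries held 896 RPKM of it on glucose and 1087 with oil. PaG_03345 had 432 RPKM in the 50 bp and 55.4 in the 95 bp library, and PaG_10127 had 4652 and 839. The highest ratio the other way was that of PaG_00769, with 616 and 1954 RPKM, which also varied widely among the glucose libraries. PaG_10482, the shortest member with 138 bp, had 547 and 268 RPKM.

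**Figure D5:**
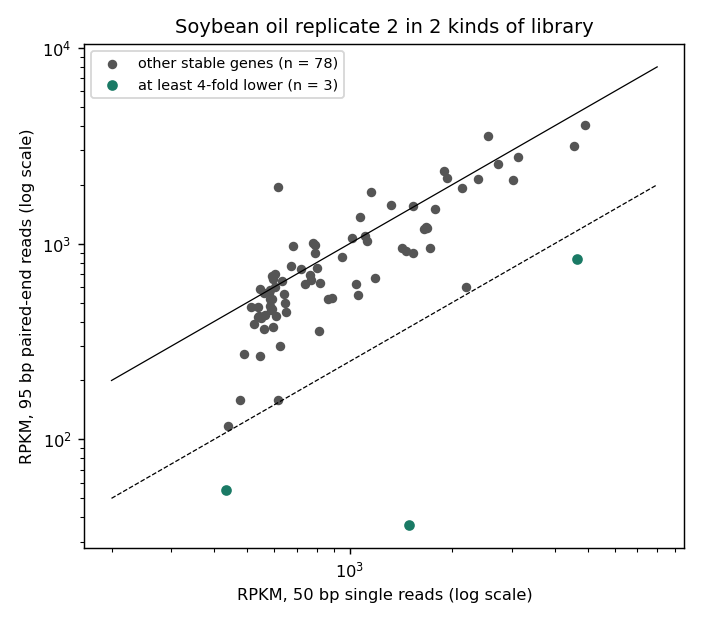
RPKM of the 81 stable genes in the 50 bp (x axis) and the 95 bp paired-end library (y axis) of soybean oil replicate 2, log scales. The solid line marks equal values and the dashed line a 4-fold lower value, below which 3 genes (green) lie, PaG_01614 the farthest.

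The stable genes were shorter than the other abundant genes by their median, a description without a test. Their median length was 887 bp (quartiles 647 and 1323), against 1441 bp in the other 101 abundant genes and 1702 bp in all genes tested, with lengths worked out from the RPKM values. Genes under 1000 bp made up 46 of the 81 (56.8%), 32 of the 101 (31.7%) and 21.7% of all genes tested. RPKM divides by this length, so level and length are not independent measures.

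Most stable genes had no other of the set beside them. By consecutive identifiers, 8 of the 81 genes (9.88%) formed 4 pairs, 4 genes without glucose 3. Of the other 101 abundant genes, 14 (13.9%) stood beside another of their own group, so such neighbours were not more frequent among the stable genes. In 3 of the 4 pairs of stable genes the log2 ratios of the media differed by little. PaG_02610 and PaG_02611 had 0.40 and 0.40, PaG_05239 and PaG_05240 had 0.22 and 0.26, and PaG_00680 and PaG_00681 both had 0.10. The last values rested on single libraries: they were 0.35 and 0.53 without glucose 3, which takes PaG_00681 out of the set, -0.08 and -0.12 without glucose 2, and 0.05 and -0.04 without glucose 1. PaG_01642 and PaG_01643 had 0.29 and 0.02. PaG_00680 had 1318, 1053 and 1870.2 RPKM on glucose and 1523, 1723 and 1289.8 RPKM with oil, and PaG_00681 had 851, 712 and 1613 RPKM on glucose and 989, 1189.8 and 1218 RPKM with oil, and in both glucose 3 was the highest of the glucose libraries and glucose 2 the lowest. PaG_01643 had 1553, 1558 and 1924 RPKM on glucose and 1678, 1776 and 1667 RPKM with oil, and its stranded levels of 1434 and 1559 RPKM were among the nearest to the unstranded ones. The sources used here do not say whether consecutive identifiers are neighbours in the genome.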

How the data were processed

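The 81 genes and the comparisons were chosen with earlier results of these data known. The authors deposited RPKM values per gene for each of 9 libraries. Alignment was done with TopHat 1.4.1, per the submitters' processing notes, and for the counting tool, annotation and genome build the sources used here give nothing. RPKM values of the 7 libraries without strand were ratios of whole numbers, so read counts, gene lengths and library totals were worked out from the deposited values. Whole reads (tolerance 0.0001 read) were found for 6899 genes, and the other 53 had no reads. The deposited stranded RPKM values have 2 decimals and none under 1, so 1 was taken to have been added and was subtracted, which moved the stranded difference of a member by at most 0.0274 on the log2 scale. Stranded library totals are unknown. For the background, limma 3.58.1 (R 4.3.3) tested log2(RPKM + 1) of genes averaging 1 RPKM or more, with an intensity trend and Benjamini-Hochberg adjustment. The fit used the deposited RPKM values, and no count test was run on the read counts worked out from them. The procedures were tested on simulated data with the same spread in all libraries. The replicates here were uneven, so that test does not cover this feature of the data. Members were named by a rule: the 10 highest means, the 3 nearest each limit, extremes of spread, of library-kind difference and of length, consecutive identifiers and near-equal pairs. Those picked out otherwise are marked in the text. Junction lists were not used, since positions are not linked to identifiers. Deviations of samples with the same replicate number correlated at -0.187 to 0.234, which cannot decide whether they share a source. No pairing was used in the main fit. Scaling, pseudocounts, filters, thresholds and left-out libraries were varied. No replicates were identical: the chi-square per degree of freedom between replicates of a medium was 6.92 to 96.2.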

Additional observations from a re-analysis of the deposited data

How the results depend on the processing

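The set held 76 to 91 genes when any of the 6 libraries was left out, and between 81 and 88 under the other scalings, pseudocounts and the 95 bp library in place of soybean oil 2, with 68 or more genes shared with the 81. Other limits changed it by construction: 211 genes at 250 RPKM, 28 at 1000 RPKM and 123 at a log2 limit of 1. Genes beside another member numbered 31, 4 and 17 there, 2 at a limit of 0.25, and 4 to 8 with a library left out. The share of reads was 16.0%, 6.96% and 19.3% on glucose and 16.5%, 7.08% and 22.6% with oil under these limits, and 7.94% and 7.89% at 0.25. It was 11.1% and 11.8% with equal sums, 14.8% and 15.7% with the 95 bp library, 11.4% with oil after quantile normalization, and 10.2% to 12.2% on glucose and 10.8% to 12.7% with oil with a library left out. The median spread ranged from 0.0512 to 0.207 on glucose and from 0.113 to 0.219 with oil when a library was left out. The common order of 3 libraries was found in 17 members after quantile normalization. This order under other scalings, and the stranded values without the subtraction of 1, were alternatives chosen after seeing the data.

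The single limma call among the 81 genes became 3 without a filter, 2 with a filter of 10 RPKM, 8 after median-ratio scaling, 6 after quantile normalization, 5 without the trend, and 0 to 9 with a library left out (9 without glucose 3, and 2 each without soybean oil 1 and soybean oil 2). It was 0 in limma with the 95 bp library, without glucose 2 and without soybean oil 3, where 1, 1 and 2 members had an unadjusted p under 0.05, and no other tool was run. Over all genes, limma called 3210, 761 with the 95 bp library and 2480 to 3644 with a library left out. The replicate block gave 2973, and under the block 1 member was called, with 5 members instead of 8 at an unadjusted p under 0.05. Deviations of same-numbered samples correlated at -0.187, 0.234 and 0.0457, and not every sample correlated best with its own number. With 3 libraries per medium these values cannot decide whether samples of the same number share a source. The 62 members under 0.5 in the stranded pair were 53 to 76 under the alternatives, and the 52 in the 95 bp library 36 to 70. Of 468 alternative log2 ratios of the 39 members named by rule, 439 moved by less than the SD between replicates, but 56 values of 21 members had the other sign. Why these values moved was not tested.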
